A study of Mus musculus with 6 samples.

Results

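The genes described here carry out or support fatty acid oxidation in mitochondria and peroxisomes. The set was 48 genes listed by function, of 12393 genes that had a probe set annotated to 1 gene alone, and each gene was read by its brightest such probe set over the 6 arrays. All 48 were represented. They comprised 20 mitochondrial enzymes and carriers, 14 peroxisomal ones, 2 ketone body enzymes, 9 peroxisome assembly (Pex) genes, and 3 others, the cytosolic thioesterases Acot1 and Acot12 and the kinase Pdk4.

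Liver was taken from male mice aged 12 weeks, 3 of them chromogranin A knockout (Chga_KO) and 3 wild type (WT), and RNA of each was hybridised to 1 Affymetrix array. Chromogranin A is stored in the granules of neuroendocrine cells and is cut into several peptide hormones. The knockout line is identified by a citation in the labels. The genetic background of either group, the kind of Chga allele, feeding state, hour of dissection and array batch are not given in the labels. A p-value here reflects how far these 6 samples scatter, part of which may be technical. Values are probe set intensities in arbitrary units, each probe set on a scale of its own, so levels are compared between arrays and not between genes. Changes are Chga_KO minus WT on log2(intensity + 16), errors of changes are standard errors of the fit (SE, n = 3 per group), and a gene passed when its limma p-value, adjusted with Benjamini-Hochberg over 13576 probe sets, was under 0.05.

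Between 64.4% and 76.9% of probe sets lay above a background level taken from bacterial control probe sets, and arrays correlated at 0.964 to 0.974 within groups and 0.960 to 0.967 between them (Pearson's r over probe sets, which are not independent). The Chga probe set was dim, at 44.5 to 231 in Chga_KO and 42.5 to 185 in WT arrays, and does not check the labels. Of 11 measured hepatocyte markers, all 11 were above background on every array, 10 read higher in Chga_KO, with a median log2 change of 0.14, and 0 passed. Markers of Kupffer cells (11 genes, 9 lower, median -0.21) and stellate cells (10 genes, all 10 lower, median -0.32) read lower, and 0 of either passed. At an unadjusted limma p under 0.05 were 2 of 11 tested hepatocyte markers (both higher) and 2 of 7 tested stellate markers (both lower). There were 0 of 10 tested Kupffer cell markers at that p, beside 10.3% of all tested genes. Endothelial markers (10 genes, 3 higher, 7 lower, median -0.049) had 0 of 8 tested at that p. Of 2 measured erythroid and 4 lymphocyte markers, 1 and 0 were tested. Summed marker intensity overlapped between groups, at 1562020 to 1800780 in Chga_KO and 1454470 to 1603290 in WT arrays for hepatocytes, at 19788 to 31558 against 24949 to 32403 for Kupffer cells, and at 21223 to 26797 against 24728 to 33318 for stellate cells. None of the muscle markers and none of the adipocyte markers was above background on every array. In bulk liver, fewer cells of a type and less RNA per cell cannot be told apart, and the part of these markers in the results was not tested.

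Long-chain fatty acids enter mitochondria as acylcarnitines, made by Cpt1a on the outer membrane and turned back to acyl-CoA by Cpt2 inside. Acyl-CoA dehydrogenases, hydratases, hydroxyacyl-CoA dehydrogenases and thiolases then shorten the chain in repeated rounds, passing electrons to the respiratory chain through the electron transfer flavoprotein. Peroxisomes shorten very long and branched chains with oxidases of their own and export the products in part as acylcarnitines. In liver much of the acetyl-CoA made during fasting becomes ketone bodies, and the nuclear receptor PPARα induces many of these genes.

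None of the 48 genes passed. Of the 45 that were bright enough to be tested, 0 had an adjusted p under 0.05, where 0.376% of all tested probe sets (51 of 13576) and 0.423% of all tested genes (34 of 8043) did. At an unadjusted p under 0.05 there were 9 genes, which is 20.0%, where 10.3% of all tested genes did and 12.0% of those in the upper 40% by intensity. Of the 9, 6 were lower in Chga_KO (Crot, Acat1, Amacr, Cpt1a, Acot12 and Bdh1), where 5.69% of all tested genes were, and 3 were higher (Crat, Acot1 and Pex11a), where 4.59% were. Over all 48 genes, 24 read higher and 24 lower, and the median log2 change was 0.00089, beside -0.0031 over all 12393 genes. Of the 48, 22 lay within 0.1 of 0 on the log2 scale, a share of 45.8%. The share was 25.7% over all genes and 33.6% over all tested genes. The 95% interval of the change lay within 1.5-fold either way for 39 of the 45 tested genes, where 49.5% of all tested genes had such an interval. In this fit brighter probe sets tend to have narrower intervals, and neither comparison was matched for intensity. Whether these shares are particular to the pathway was not tested. Replicates differed little, with a median coefficient of variation over the tested members of 7.62% in Chga_KO and 7.68% in WT arrays.

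**Figure D1:**
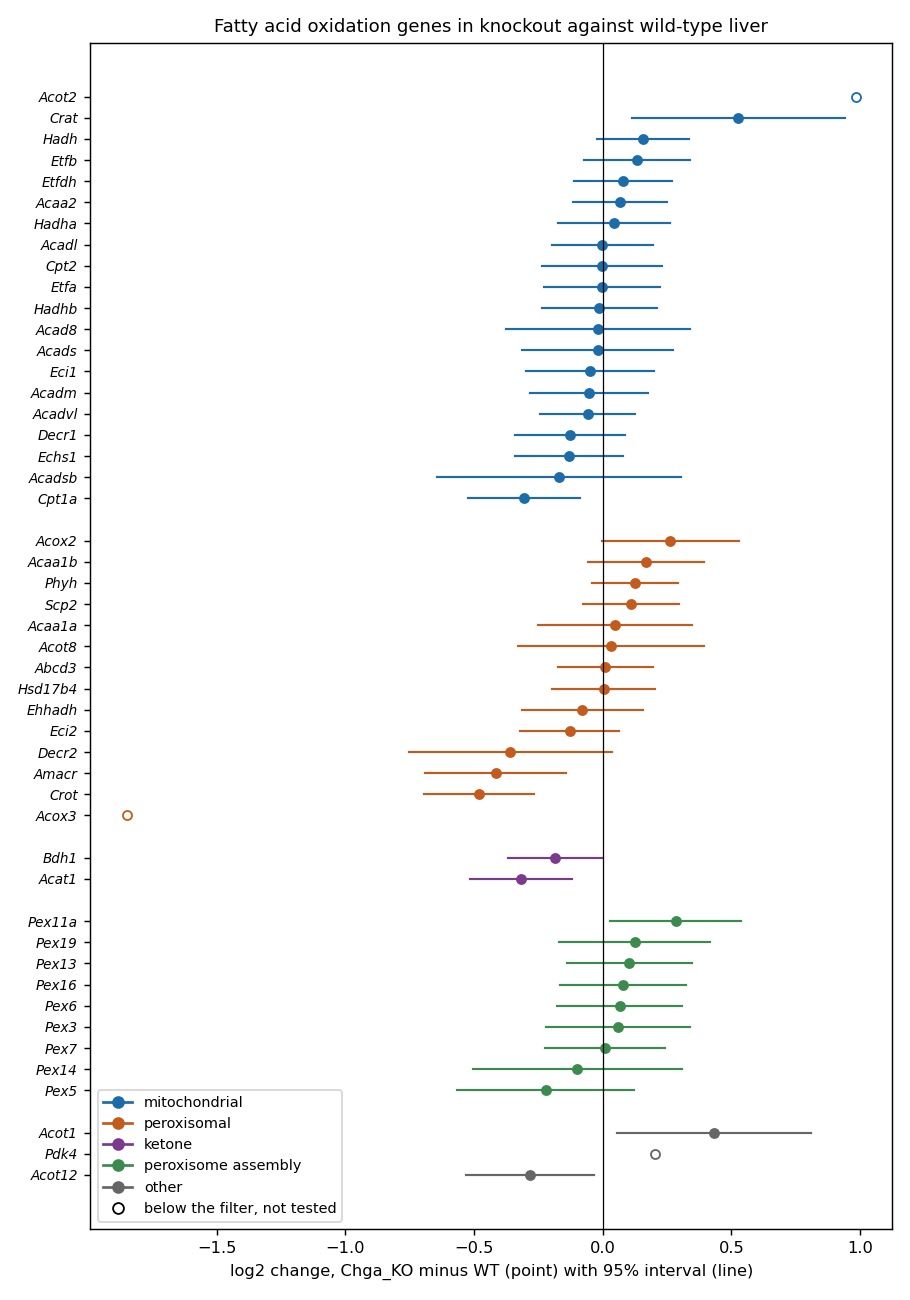
Each row is 1 gene, ordered by size within its subset; the horizontal axis is the log2 change, Chga_KO minus WT, with the 95% interval of the fit as a line (n = 3 arrays per group). Most mitochondrial genes sit near 0, both ketone genes lie to the left, and open circles mark the 3 dim genes that were not tested.

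The 4 carnitine acyltransferases did not run one way. Crot had the lowest and Crat the highest log2 change of the tested members, while Cpt1a was lower by less and Cpt2 was near 0. Crot, which makes medium-chain acylcarnitines in the peroxisome, read 30352, 25317 and 28040 in the Chga_KO arrays, against 40725, 36190 and 39902 in the WT arrays. Every Chga_KO array was below every WT array, a log2 change of -0.48 ± 0.10 (WT 1.40-fold over Chga_KO) with an adjusted p of 0.0670 by limma. It was the member closest to passing, and it did pass with quantile normalization (adjusted p = 0.0482), with array weights (0.0426) and without Chga_KO replicate 1 (0.0484), while over all alternatives the adjusted p reached 0.378.

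Cpt1a, the entry step of mitochondrial oxidation and the site at which malonyl-CoA restrains it, read 19517, 23425 and 22298 in Chga_KO and 27334, 25331 and 27869 in WT livers. The groups did not overlap, and the log2 change was -0.31 ± 0.10 (limma, unadjusted p = 0.00994, adjusted p = 0.297). Both further probe sets of Cpt1a were lower as well, at -0.48 ± 0.10 and -0.50 ± 0.13, with no overlap of groups on either (limma, adjusted p = 0.0802 and 0.157). The unadjusted p of Cpt1a stayed under 0.05 in all 16 alternatives.

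Crat, the acetyltransferase that works in mitochondria and peroxisomes, went the other way. It read 1500.4, 1628 and 1507 in Chga_KO and 895, 1302 and 1040.3 in WT arrays, with no overlap, a log2 change of 0.53 ± 0.19 (limma, unadjusted p = 0.0171, adjusted p = 0.370). Its unadjusted p passed 0.05 without Chga_KO replicate 2 or WT replicate 1 and with the mean of all probe sets, reaching 0.0880. A dimmer probe set of Crat, below the filter, gave 0.74 with 1 WT array above all Chga_KO arrays.

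Cpt2, which completes the transfer begun by Cpt1a, read 11139.6, 11631 and 12181 in Chga_KO, against 12895, 10605 and 11582 in WT, a log2 change of -0.0017 with a 95% interval of -0.24 to 0.23. The groups overlapped. Whether the changes of Cpt1a and Cpt2 differ was not tested.

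The upstream sequences of Crot and Cpt1a are shown because these were the carnitine acyltransferases that read lower at an unadjusted p under 0.05. They are from RefSeq, build GRCm38.p6, cover the 250 bases before the annotated start, and are written 5′ to 3′ on the gene's strand. Capitals mark 3 short motifs, each searched on both strands. The GC box, a site of Sp1-type factors, was searched as GGGCGG. The CCAAT box, bound by NF-Y, was searched by the letters of its name. The half-site to which many nuclear receptors bind was searched as AGGTCA.
Crot, chr5:8997147-8997396, minus strand: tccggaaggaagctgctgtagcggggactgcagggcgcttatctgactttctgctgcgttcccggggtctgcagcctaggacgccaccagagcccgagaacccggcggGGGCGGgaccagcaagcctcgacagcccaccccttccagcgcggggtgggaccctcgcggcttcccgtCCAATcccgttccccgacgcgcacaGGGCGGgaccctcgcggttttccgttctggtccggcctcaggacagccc
Cpt1a, chr19:3323051-3323300, plus strand: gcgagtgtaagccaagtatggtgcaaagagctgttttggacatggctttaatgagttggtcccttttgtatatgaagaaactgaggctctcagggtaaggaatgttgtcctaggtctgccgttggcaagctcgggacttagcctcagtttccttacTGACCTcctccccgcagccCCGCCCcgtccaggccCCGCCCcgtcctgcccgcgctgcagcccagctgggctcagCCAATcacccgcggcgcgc
Both held 2 GC boxes and 1 CCAAT box, and Cpt1a also held 1 half-site. Among the 41 of 48 members with an entry in the table, 63.4% held a GC box, where 35.4% of all 27025 genes in it did, 46.3% a CCAAT box (37.5% of all genes), and 14.6% the half-site (15.8% of all genes). A direct repeat of that half-site with any 1 base between the copies, the ideal form of the element that PPARα binds with its partner RXR, was found for 0 of the 41 members and for 11 of the 27025 genes. These are matches of letters in a short window and say nothing of binding.

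The enzymes of the mitochondrial spiral itself read close to wild type. Among the acyl-CoA dehydrogenases, which open each round for chains of different length, the log2 changes were -0.059 for Acadvl (very long chains), -0.0013 for Acadl (long), -0.053 for Acadm (medium) and -0.019 for Acads (short). The 95% intervals of these 4 genes reached from -0.31 at the lowest to 0.27 at the highest. Acad8 and Acadsb, which serve branched amino acid breakdown rather than straight chains, were at -0.019 and -0.17. Acadsb was the widest of the tested members, with a 95% interval of -0.65 to 0.30. It read 10721, 6812 and 5514 in Chga_KO, against 7029, 8482 and 9652 in WT arrays. Acadl had a further probe set at -0.69, but it was below the filter and read 26.8, 17.7 and 174 in Chga_KO, against 19.6, 160 and 168 in WT arrays.

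The trifunctional protein, whose subunits are encoded by Hadha and Hadhb, handles the later steps for long chains. Hadha was at 0.044 ± 0.098 and Hadhb at -0.014 ± 0.101. A further probe set of Hadhb was at -0.13 ± 0.09, with every Chga_KO array below every WT array (limma, adjusted p = 0.672). The genes lie head to head, with 0 protein-coding genes between them and 273 bases between their annotated starts, and the stretch that falls within the promoter windows of both is shown because 1 sequence stands upstream of both subunits (RefSeq, GRCm38.p6; capitals mark a GC box).
Hadhb and Hadha, chr5:30155003-30155230, plus strand: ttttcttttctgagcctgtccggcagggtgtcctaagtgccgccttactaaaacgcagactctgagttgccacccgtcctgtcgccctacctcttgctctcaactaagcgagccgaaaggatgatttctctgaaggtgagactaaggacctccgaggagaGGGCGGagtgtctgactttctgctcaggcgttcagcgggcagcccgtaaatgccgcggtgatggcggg
In their brightest probe sets, both subunits had a change within its SE of 0.

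Hadh, the short-chain hydroxyacyl-CoA dehydrogenase, read 123144, 129216 and 128590 in Chga_KO, against 113402, 105964 and 123315 in WT livers. The highest WT array lay just above the lowest Chga_KO array. The log2 change was 0.16 ± 0.08 (limma, unadjusted p = 0.0818), with its further probe sets at 0.12 and 0.15. With quantile normalization the log2 change of Hadh was 0.031. Acaa2, the thiolase that releases acetyl-CoA, read 60893, 69457 and 66121 in Chga_KO and 64838, 60245 and 62423 in WT, a log2 change of 0.066 ± 0.083. Its other probe sets were at 0.0063 and -0.18, so the sign depended on the probe set. With quantile normalization Acaa2 was at -0.012.

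Echs1, the short-chain hydratase (-0.13 ± 0.09), Eci1, the isomerase for unsaturated chains (-0.049 ± 0.113), and Decr1, the mitochondrial dienoyl reductase (-0.13 ± 0.10), did not pass at an unadjusted p of 0.05. A dimmer probe set of Decr1 read lower, with no overlap, at -0.44 ± 0.16 (limma, unadjusted p = 0.0168, adjusted p = 0.367). The electron transfer flavoprotein subunits Etfa and Etfb were at -0.0026 ± 0.102 and 0.13 ± 0.09. Etfdh, which passes their electrons on to ubiquinone, read 18746, 18183 and 18768 in Chga_KO and 17139, 17465 and 18099.8 in WT arrays. Its groups were apart by a small margin, at 0.080 ± 0.086, and it did not pass (limma, adjusted p = 0.804). In all, 7 mitochondrial genes read higher and 13 lower, and the median was -0.0081. Of 19 tested, 2 had an unadjusted p under 0.05, Cpt1a and Crat. That share of 10.5% was near the 10.3% of all tested genes.

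The peroxisomal genes read on both sides of 0. Their median log2 change was 0.0066, with 8 higher and 6 lower. Over the 13 tested genes the quartiles were -0.13 and 0.11, beside -0.056 and 0.055 over the 19 tested mitochondrial genes, and whether the spreads differ was not tested. Of 13 tested, 2 had an unadjusted p under 0.05, Crot and Amacr, a share of 15.4%, beside 10.3% of all tested genes. Amacr, the racemase that prepares branched fatty acids and bile acid precursors for oxidation, read 3507, 4033 and 3994 in Chga_KO, against 4733, 5055 and 5626 in WT livers. Every Chga_KO array was lower, at -0.42 ± 0.12 (limma, unadjusted p = 0.00682, adjusted p = 0.249), and the unadjusted p stayed under 0.05 in all 16 alternatives.

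The oxidases that start the peroxisomal pathway for branched chains were read by Acox2 and Acox3. Acox2, which also acts on bile acid precursors, read 25186, 19251 and 24179 in Chga_KO and 21009, 17790.2 and 18183 in WT arrays, with Chga_KO replicate 2 inside the WT range, at 0.26 ± 0.12 (limma, unadjusted p = 0.0528). Acox3 was dim, above background on 1 of 3 Chga_KO and 2 of 3 WT arrays, and was not tested. Its values were 30.4, 16.5 and 223 in Chga_KO, against 366, 274 and 136 in WT, and its log2 change was -1.85, or between -2.72 and -1.28 when any 1 array was dropped.

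Ehhadh and Hsd17b4 each encode a bifunctional enzyme for the middle steps. Ehhadh, a much-used marker of PPARα activity in rodents, read 22474, 20286 and 25332 in Chga_KO and 22970, 26034 and 22823 in WT, overlapping, at -0.080 with a 95% interval of -0.32 to 0.15. Hsd17b4 was at 0.0031 ± 0.091 and its other probe set at 0.00049. Abcd3, which carries long-chain acyl-CoA across the peroxisomal membrane, was at 0.010 ± 0.083.

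The peroxisomal thiolases Acaa1a and Acaa1b are near-identical paralogs on chromosome 9, with 4 protein-coding genes between them, so which of them a probe set reads is uncertain. Acaa1b read 124852, 137539 and 164784 in Chga_KO, against 131320, 120669 and 125469 in WT livers, at 0.17 ± 0.10, the difference resting most on Chga_KO replicate 3. Acaa1a read 7987, 6156 and 6876 in Chga_KO and 7120.1, 5841 and 7367 in WT arrays, at 0.047 ± 0.136, and its further probe set was at -0.014. Scp2, whose longer product is a thiolase for branched chains, read 126867, 149894 and 135839 in Chga_KO and 124789, 123701 and 133228 in WT, at 0.11 ± 0.08, with its 3 other probe sets between -0.083 and 0.20.

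Phyh, which starts the alpha-oxidation of phytanic acid, read 126515, 115916 and 118204 in Chga_KO, against 108300, 108031 and 114308 in WT livers. Its groups were apart but the step was small, at 0.12 ± 0.08 (limma, adjusted p = 0.628). With quantile normalization the log2 change of Phyh was 0.030, that of Acaa1b 0.030 and that of Scp2 -0.0315. Eci2, an isomerase, read 17776, 18205 and 19049.5 in Chga_KO and 20477, 20152 and 19538 in WT arrays, apart in the other direction at -0.13 ± 0.09 (limma, adjusted p = 0.666). Decr2, the peroxisomal dienoyl reductase, was at -0.36 ± 0.18 (limma, unadjusted p = 0.0701), with 10702 in Chga_KO replicate 1 against 16367 and 18777 in the other 2 Chga_KO arrays. The WT arrays read 21180, 18208 and 18005 for Decr2. Without Chga_KO replicate 1 the log2 change of Decr2 was -0.12, and it lay between -0.53 and -0.12 when any 1 array was dropped.

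**Figure D2:**
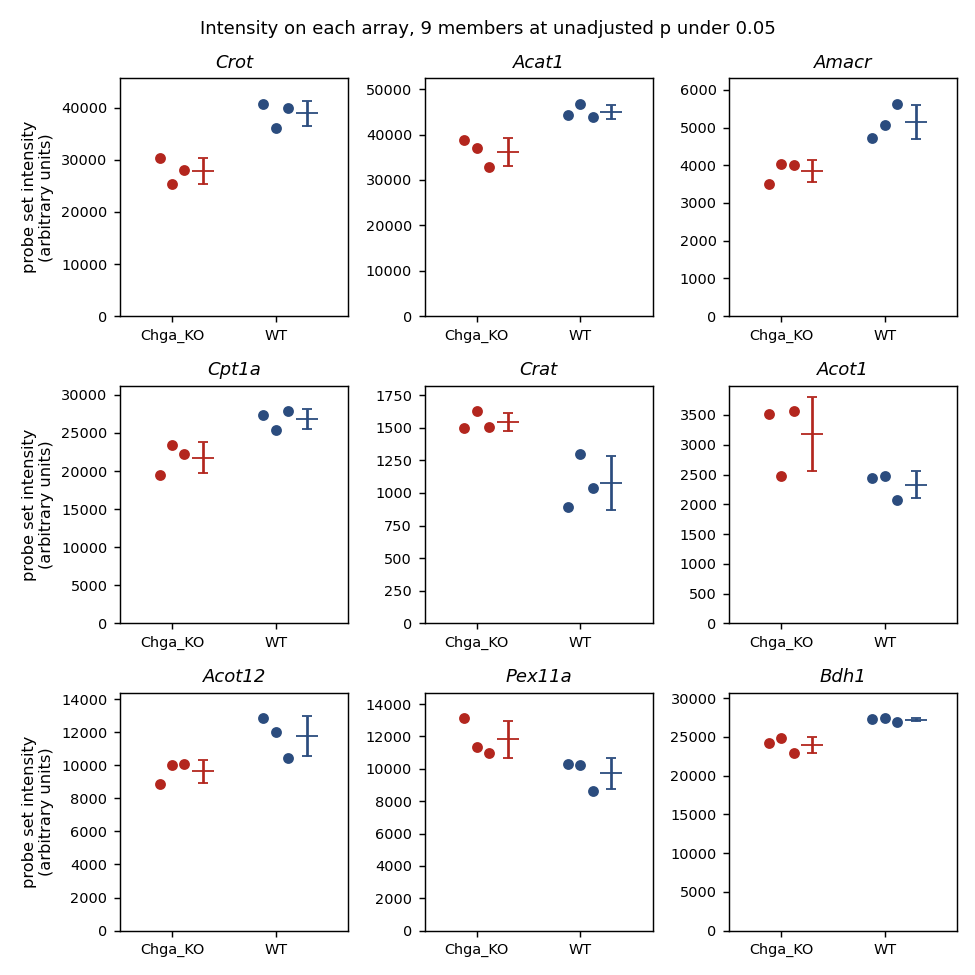
Each panel shows 1 of the 9 genes at an unadjusted p under 0.05, ordered by p; points are probe set intensities in arbitrary units on single arrays, and the bar with whiskers is the mean with SD (n = 3 per group). The groups do not overlap in 8 panels; in Acot1 the lowest Chga_KO array (2471.0) meets the highest WT array (2471.3).

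Acyl-CoA thioesterases release free fatty acids from CoA in different compartments. Acot1, the cytosolic enzyme, read 3515, 2471.0 and 3565 in Chga_KO and 2444, 2471.3 and 2073 in WT arrays, at 0.43 ± 0.17 (limma, unadjusted p = 0.0279, adjusted p = 0.437). The p exceeded 0.05 in 5 of 16 alternatives, without Chga_KO replicate 1, Chga_KO replicate 3 or WT replicate 3, without the intensity trend and with array weights, reaching 0.0970. Acot2, its mitochondrial neighbour on chromosome 12, is close to it in sequence, so the reading of each is uncertain. Acot2 was below the filter, above background on 2 of 3 arrays in either group, and read 402, 310.3 and 289.6 in Chga_KO, against 237, 290.0 and 53.6 in WT, with a log2 change of 0.98, or between 0.32 and 1.39 when any 1 array was dropped. Acot12, a cytosolic acetyl-CoA hydrolase, read 8852, 10002 and 10097 in Chga_KO and 12837, 12013 and 10433 in WT livers, lower in every Chga_KO array at -0.28 ± 0.11 (limma, unadjusted p = 0.0301, adjusted p = 0.445), with its other probe set at -0.35 ± 0.15. Its unadjusted p exceeded 0.05 in 6 of 16 alternatives, without Chga_KO replicate 1, WT replicate 1 or WT replicate 2, with median centring, without the intensity trend and with the replicate block, reaching 0.122. Acot8, the peroxisomal thioesterase, was at 0.033 ± 0.163.

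Both ketone body genes read lower. Acat1, the mitochondrial acetoacetyl-CoA thiolase, read 38698, 36983 and 32857 in Chga_KO, against 44327, 46753 and 43965 in WT livers. The groups did not overlap, and the log2 change was -0.32 ± 0.09 (limma, unadjusted p = 0.00479, adjusted p = 0.211). Its 3 probe sets gave -0.32, -0.30 and -0.36, and the unadjusted p stayed under 0.05 in all 16 alternatives. Bdh1, which interconverts acetoacetate and beta-hydroxybutyrate, read 24152, 24833 and 22889 in Chga_KO and 27311, 27374 and 26968 in WT arrays. These groups also stood apart, at -0.18 ± 0.08 (limma, unadjusted p = 0.0499, adjusted p = 0.501), but the unadjusted p held under 0.05 in only 5 of 16 alternatives and in none with an array left out. Its other probe set was at -0.27 ± 0.14. With 2 genes, the subset's median of -0.25 is a description of this pair.

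The peroxisome assembly genes read close to wild type. The Pex proteins form the organelle's membrane, import its matrix enzymes and drive its division. Of 9 genes, 7 were higher and 2 lower, and the median log2 change was 0.066. Only 1, Pex11a, had an unadjusted p under 0.05. That share of 11.1% was near the 10.3% of all tested genes. The median was 0.018 without Chga_KO replicate 3 and 0.0089 when the probe sets of each gene were averaged. For all 9 the 95% interval lay within 1.5-fold either way. Of assembly genes outside the 48, Pex2 (-0.055 ± 0.123) and Pex26 (-0.31 ± 0.19), named after their values were seen, were both lower with overlapping groups. Pex11a, which promotes peroxisome elongation and division and is a PPARα target in rodents, read 13119, 11355 and 10991 in Chga_KO, against 10292, 10216 and 8635 in WT livers. Its groups were apart at 0.28 ± 0.12 (limma, unadjusted p = 0.0324, adjusted p = 0.451), its other probe set was at 0.16 ± 0.13 with overlapping groups, and the p exceeded 0.05 in 4 of 16 alternatives, without Chga_KO replicate 1, without WT replicate 3, without the intensity trend and with the mean of all probe sets, reaching 0.138.

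The import receptors lay on both sides of 0. Pex5, for the common carboxy-terminal signal, was at -0.22 ± 0.16 and its other probe set at 0.023, while Pex7, for the amino-terminal signal, read 13423, 12269 and 11752 in Chga_KO and 11423, 13501 and 12318 in WT, at 0.0089 ± 0.105. The docking proteins Pex13 (0.10 ± 0.11) and Pex14 (-0.099 ± 0.184), the membrane assembly genes Pex3 (0.059 ± 0.126), Pex16 (0.080 ± 0.111) and Pex19 (0.12 ± 0.13), and Pex6, an ATPase that recycles the receptor, overlapped between groups. Pex6 read 11468, 12865 and 13822 in Chga_KO, against 13068, 11106 and 12247 in WT arrays, at 0.066 ± 0.110, and its 5 probe sets ran from -0.082 to 0.23.

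Pdk4, the kinase that shuts off pyruvate dehydrogenase when fatty acids are burned, was too dim to read, above background on 1 of 3 arrays in either group. Its values were 49.6, 259 and 249 in Chga_KO, against 25.1, 410 and 164 in WT livers. The log2 change was 0.20, lay between -0.71 and 0.97 when any 1 array was dropped, and gives no direction.

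**Figure D3:**
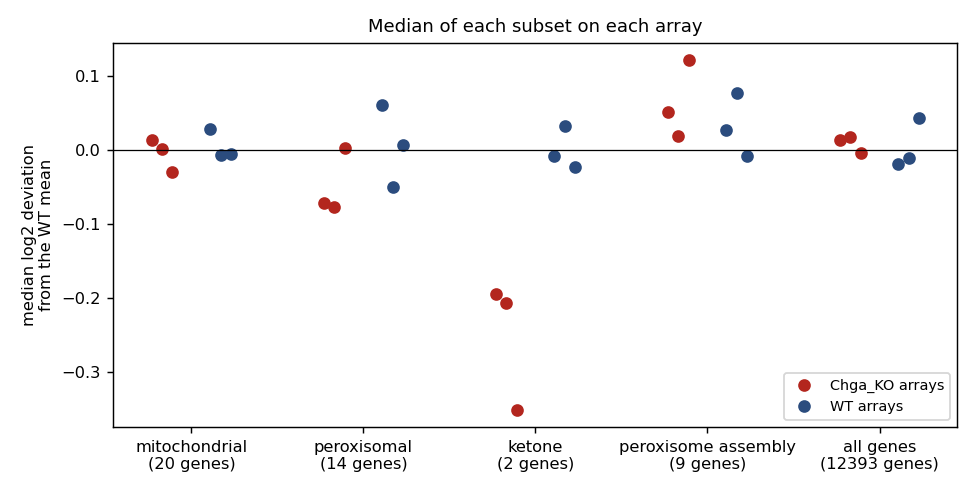
Each point is 1 array; the vertical axis is the median over a subset's genes of the log2 deviation from that gene's mean in the WT arrays, so the WT points centre near 0 by construction. The ketone pair alone has its Chga_KO points clear of its WT points.

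The 4 subsets can be set side by side by array. The median deviation of the mitochondrial genes from their WT means was 0.013, 0.0013 and -0.030 in the Chga_KO arrays and 0.029, -0.0062 and -0.0052 in the WT arrays. For the peroxisomal genes it was -0.071, -0.077 and 0.0028 in Chga_KO, against 0.061, -0.050 and 0.0069 in WT. For the ketone pair it was -0.19, -0.21 and -0.35 in Chga_KO and -0.0084, 0.032 and -0.023 in WT, and for the Pex genes 0.051, 0.019 and 0.12 in Chga_KO and 0.027, 0.077 and -0.0079 in WT. The groups overlapped in the mitochondrial, peroxisomal and Pex medians. Single genes had groups that did not overlap in 3 of 20 mitochondrial (15%) and 4 of 14 peroxisomal genes (28.6%). The same held for 2 of 2 ketone and 1 of 9 Pex genes (11.1%). Over all 48 members 11 did not overlap, 22.9%, where 13.7% of all genes and 15.6% of all tested genes did not. Of the 11, 4 were higher in Chga_KO (Crat, Phyh, Etfdh and Pex11a), where 7.12% of all genes were, and 7 were lower, where 6.54% were. Differences between subsets were not tested.

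Several probe sets for a gene give a reading that the choice of probe set did not use. Of the 48 members, 26 had 1 probe set and 22 had 2 to 5, and in 15 of the 22 all probe sets had the same sign. The median gap between the highest and lowest change of a gene was 0.18. The signs were mixed in Acaa1a, Acaa2, Pex3, Pex5, Pex6, Pex19 and Scp2, none of which had an unadjusted p under 0.05 in its brightest probe set. Of the 9 genes at an unadjusted p under 0.05, 6 had several probe sets (Cpt1a, Crat, Acat1, Acot12, Bdh1 and Pex11a), and each of the 6 kept its sign in all of them. None of the members' 79 probe sets passed.

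**Figure D4:**
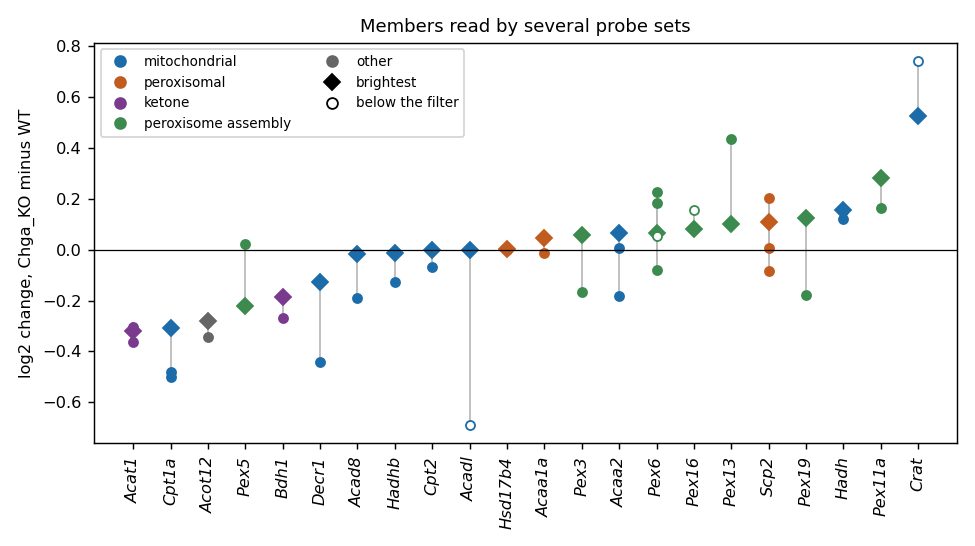
Each column is 1 of the 22 members with several probe sets; the vertical axis is the log2 change, Chga_KO minus WT, diamonds are the brightest probe set and open symbols lie below the filter. Cpt1a, Acat1, Acot12 and Bdh1 are below 0 in every probe set, while Pex6 and Scp2 straddle 0.

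Of 34 further genes of the pathway that were measured, 33 were tested and 0 passed. At an unadjusted p under 0.05 there were 8, or 24.2% beside the 10.3% of all tested genes, 3 higher and 5 lower. Ppara, which encodes PPARα, was lower at 22052, 27163 and 31889 in Chga_KO, against 36473, 39689 and 42027 in WT livers, a log2 change of -0.56 ± 0.13 (limma, unadjusted p = 0.00126, adjusted p = 0.113). Its target Cyp4a14, a microsomal omega-hydroxylase, read 9305, 6108 and 9171 in Chga_KO and 16222, 23194 and 11441 in WT livers, with no overlap, at -1.01 ± 0.24 (limma, adjusted p = 0.116). Of the members named above for PPARα, Ehhadh overlapped between groups at -0.080 and Pex11a read higher at 0.28. Ehhadh and Pex11a do not stand for all the genes that PPARα induces, and whether PPARα activity differed was not tested. The coactivator Ppargc1a overlapped at -0.20 ± 0.17. The remaining 6 genes at that p are named after their values were seen. The 3 lower ones were the coactivator Ppargc1b (-0.49 ± 0.16), the plasma membrane carnitine transporter Slc22a5 (-0.52 ± 0.15) and the peroxisomal membrane carrier Slc25a17 (-0.58 ± 0.15). The 3 higher genes were Acad9, known chiefly for complex I assembly (0.84 ± 0.21), the branched-chain dehydrogenase Hsd17b10 (0.50 ± 0.14) and Hacl1, the lyase that follows Phyh in alpha-oxidation (0.48 ± 0.12).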

How the data were processed

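Liver RNA from 3 Chga_KO and 3 WT male mice was labelled as biotinylated cRNA, per the labels' protocols. The authors deposited linear-scale intensities, 1 per probe set, made with GCOS 1.2, per the submitters' processing notes. Means after trimming 2% at each end were 2501.32 to 2501.42, so arrays were scaled before deposit by a rule that no label states. The table held 22690 probe sets; 64 controls were left out, 20380 had 1 gene in the platform annotation, 691 several and 1555 none.

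The 13576 probe sets (60%) with the highest mean log2(intensity + 16) were fitted with limma 3.58.1 in R 4.3.3 (lmFit, eBayes with intensity trend), all 6 arrays, no covariate, Benjamini-Hochberg over all kept probe sets. Of the 48 members, 45 passed this filter and Acox3, Acot2 and Pdk4 did not. The procedure was run on simulated data, with planted changes larger than that of any tested member. That run does not bear on changes as small as these. Background was the 95th percentile of 27 Bacillus subtilis control probe sets on each array. Values on every array are given for members at an unadjusted p under 0.05, members whose groups do not overlap, the 2 brightest of each subset, the paralog pairs and the control steps of the pathway; Acadsb, Acox2, Acox3, Decr2 and a dim Acadl probe set were added after their values were seen. Members, lists and tests were chosen with earlier results of these data known. Alternatives were pseudocounts 1 and 64, quantile normalization, median centring, no filter or the upper 40%, no trend, array weights, a replicate block, the mean of all probe sets, and each array left out. The number of arrays limits the precision. Same-numbered arrays did not deviate together (r between -0.065 and -0.059). Arrays of matched samples need not deviate together, so this check cannot decide whether the numbers pair the samples. Sequences are from RefSeq's promoter table, in which 41 of 48 members matched.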

Additional observations from a re-analysis of the deposited data

How the results depend on the processing

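The 9 members at an unadjusted p under 0.05 kept their direction in all 16 alternatives. The filter, trend and replicate block settings leave the log2 change as it is, so they could not alter a direction. Nor could a dropped array or another pseudocount reverse genes whose groups did not overlap. Cpt1a, Crot, Amacr and Acat1 kept an unadjusted p under 0.05 in all 16, Crat in 13, Pex11a in 12, Acot1 in 11, Acot12 in 10 and Bdh1 in 5. The number of members that passed was 1, Crot, with quantile normalization and with array weights, and 0 to 1 with an array left out (1 without Chga_KO replicate 1); in the remaining alternatives it was 0. Without the intensity trend 5 members had an unadjusted p under 0.05, and 7 to 8 did with an array left out. All probe sets that passed numbered 51 in the main setting, 7 without the trend, 82 with array weights, 27 with the replicate block, and 21 to 57 with an array left out (23 without WT replicate 1, 21 without WT replicate 3). The replicate block left 0 members passing and 8 at an unadjusted p under 0.05. Members whose groups did not overlap were 14 to 20 with an array left out, where fewer arrays make a gap easier. The median change of all members was -0.020 with quantile normalization and -0.032 with the mean of all probe sets, which also gave -0.043 for the mitochondrial and 0.0089 for the Pex genes. With an array left out the medians ran from -0.016 to 0.017 for all members, from -0.031 to 0.026 for the mitochondrial, from -0.050 to 0.028 for the peroxisomal, from -0.28 to -0.20 for the ketone, from 0.018 to 0.10 for the Pex and from -0.22 to 0.48 for the 3 other genes. The cause of these moves was not tested. Signal over background limits Acox3, Acot2 and Pdk4, which have no usable reading here.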
